A study of Mus musculus with 7 samples.

Results

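The genes described here are the mouse Hox genes, taken from RNA of endothelial cells sorted from fetal lung at E18.5, shortly before birth. Members were chosen by name alone, as symbols made of Hox, a cluster letter and a number in the annotation of the array. The 36 Hox genes with a probe set of their own were followed, out of 22180 genes measured this way. They comprised 9 genes of the Hoxa cluster, 10 of Hoxb, 9 of Hoxc and 8 of Hoxd. Hoxa11 and Hoxd4 were covered by probe sets shared with another gene.

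The samples were 3 labelled wild-type and 4 labelled Sash1-knockout, with 1 array each. Both kinds of embryo came from the same litters, Sash1-/- or wild-type, in C57BL/6 mice, and their genotype was read by PCR. Live cells with CD31 and without CD45 and CD326 were sorted, so that endothelial cells were kept and leukocytes and epithelial cells were removed, and their RNA was amplified with the Nugen Pico WTA kit. For Sash1, which encodes an adaptor protein, the labels name no driver that would limit the loss to endothelium, and they give neither the deleted exons nor the number of embryos or litters behind a sample. The p-values below therefore rest on the spread among these 7 samples, and part of that spread may be technical. The series asks what loss of endothelial Sash1 does to nitric oxide signalling and surfactant in the lung, and the Hox genes bear on the regional identity of the cells in which this was asked.

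Hox genes encode transcription factors that bind DNA through a homeodomain, and they lie in the Hoxa, Hoxb, Hoxc and Hoxd clusters. The position of a gene in its cluster, given by its number, follows the order in which Hox genes are active along the body from head to tail, so low numbers are called anterior and high numbers posterior. Genes of the same number in different clusters are paralogues. In the developing lung, anterior and central Hoxa and Hoxb genes are the ones known to be active, and Hoxa5 in particular is known for its role in lung mesenchyme and airway development. Endothelial cells of different organs are known to carry different Hox genes, and several Hox factors, among them Hoxa3, Hoxa9, Hoxb5, Hoxd3 and Hoxd10, have been linked to endothelial migration, activation or quiescence.

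The values are log2 signals, and a level also depends on how well a probe set binds, so levels of different genes were not ranked. Each gene was set instead against background ceilings taken from 1394 olfactory and vomeronasal receptor genes, which serve smell and are not known to be active in lung endothelium. The upper ceiling, the 99th percentile of those genes, lay at 5.39, and the lower ceiling, the 95th percentile, at 3.99. A ceiling does not remove the part of probe set binding, so a gene under it may still be transcribed. Of all 22180 genes, 31.7% lay above the upper ceiling and 51.8% above the lower ceiling on all 7 arrays. All 14 markers of endothelium did so at the upper ceiling, and Pecam1, which encodes CD31, measured 11.03 to 11.21. Markers of excluded cells were also measured. Above the upper ceiling on all 7 arrays were 11 of 16 of lung epithelium and 3 of 14 of leukocytes. Some of these lay far above it. The epithelial gene Sftpc averaged 11.93 with the wild-type label and 11.51 with the knockout label. The epithelial gene Sftpb measured 6.13 to 10.01 and the leukocyte gene Lyz2 7.22 to 10.15. Epcam (4.06 to 5.31) and Ptprc (3.51 to 4.85), which encode CD326 and CD45, stayed below the upper ceiling. Sash1 measured 9.02, 8.73 and 8.33 with the wild-type label (arrays 1, 2 and 3) and 8.29, 8.21, 8.68 and 8.13 with the knockout label (arrays 1, 2, 3 and 4). The array labelled wild-type 3 thus lay among the knockout-labelled values and knockout 3 above it, so groups are named by their labels and every direction below rests on those labels.

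The start regions of 4 Hox genes are printed to show what the members look like upstream of transcription, 3 of genes above the lower ceiling and, for contrast, Hoxa13, which was not. Each run holds the 250 bases before the gene's RefSeq start on GRCm38.p6, 5′ to 3′ on the gene's own strand, and capitals mark the dinucleotide CG, the site of DNA methylation in mammals. Hoxa5 (chr6:52204588-52204837, minus strand) holds 28 CG, Hoxa2 (chr6:52164832-52165081, minus strand) holds 6, Hoxb4 (chr11:96318017-96318266, plus strand) holds 14 and Hoxa13 (chr6:52260881-52261130, minus strand) holds 35.
Hoxa5: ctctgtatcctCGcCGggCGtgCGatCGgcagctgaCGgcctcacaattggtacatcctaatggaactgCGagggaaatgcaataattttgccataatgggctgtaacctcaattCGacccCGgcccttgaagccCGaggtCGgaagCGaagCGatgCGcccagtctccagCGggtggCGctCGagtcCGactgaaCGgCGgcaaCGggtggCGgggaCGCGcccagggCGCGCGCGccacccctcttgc
Hoxa2: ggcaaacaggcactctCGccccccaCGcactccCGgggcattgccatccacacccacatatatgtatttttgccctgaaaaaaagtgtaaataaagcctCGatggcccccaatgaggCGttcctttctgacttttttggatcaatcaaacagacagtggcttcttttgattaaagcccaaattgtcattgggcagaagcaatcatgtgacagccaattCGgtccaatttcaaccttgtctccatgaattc
Hoxb4: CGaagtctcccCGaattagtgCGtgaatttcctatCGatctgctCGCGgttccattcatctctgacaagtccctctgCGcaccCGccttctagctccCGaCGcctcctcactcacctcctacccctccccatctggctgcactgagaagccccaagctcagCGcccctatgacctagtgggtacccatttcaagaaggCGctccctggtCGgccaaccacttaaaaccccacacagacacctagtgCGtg
Hoxa13: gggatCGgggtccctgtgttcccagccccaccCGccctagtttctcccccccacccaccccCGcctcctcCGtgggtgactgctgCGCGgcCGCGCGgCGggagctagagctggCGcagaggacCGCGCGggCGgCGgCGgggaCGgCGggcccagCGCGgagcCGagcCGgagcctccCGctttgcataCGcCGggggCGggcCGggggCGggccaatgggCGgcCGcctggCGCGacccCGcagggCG

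RefSeq start regions were found for 20 of the 36 genes, 22 regions in all. The 8 of genes above the lower ceiling held 6 to 28 CG with a median of 16, and the other 14 held 2 to 35 with a median of 12. Over all 32851 start regions of the table the median was 6. Ranges of the Hox genes above and below the ceiling overlapped widely, so CG content did not separate them. On either strand, TATAAA, the core of the TATA box, occurred in 0 of the 8 and 3 of the 14 (12.4% of all regions). TAATTA, a core bound by many homeodomains, occurred in 0 and 2 (4.84%), both of them start regions of Hoxd11. The 14 regions came from 12 genes. The composite TGATTNAT can be bound by Hox and Pbx proteins together. It occurred in 1 of the 8, that of Hoxa2, and in 1 of the 14, of Hoxd11 (2.82% of all). TAATTA and TGATTNAT can share letters, and a match describes the letters only.

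Hox signal above background in the sorted cells lay mostly in the anterior and central parts of Hoxa and Hoxb. On all 7 arrays, 12 of 36 Hox genes (33.3%, against 51.8% of all genes) were above the lower ceiling, and these were Hoxa2 to Hoxa7, Hoxb2 to Hoxb5, Hoxd8 and Hoxd10. At the upper ceiling 3 remained, Hoxa2, Hoxa5 and Hoxb5 (8.33%, against 31.7%), while Hoxa3 passed it on 6 of 7 arrays and Hoxb4 on 5 of 7. In Hoxa, all 6 genes measured from positions 2 to 7 were above the lower ceiling and Hoxa9, Hoxa10 and Hoxa13 were not on any array. In Hoxb the run ended earlier, with Hoxb2 to Hoxb5 above it and Hoxb1, Hoxb6, Hoxb7, Hoxb8, Hoxb9 and Hoxb13 on no array. None of the 9 Hoxc genes exceeded it on any array, with single values between 1.94 and 3.75. In these samples 11 of 16 fibroblast and mesenchyme markers were also above the upper ceiling on all 7 arrays. Which cells gave the Hox signal was not tested.

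**Figure D1:**
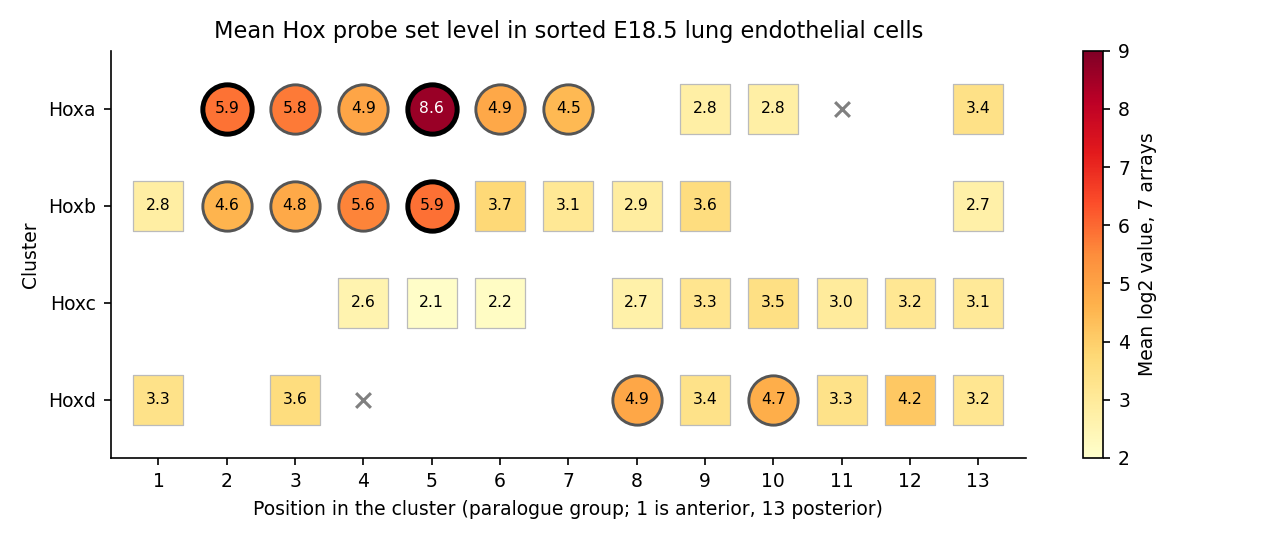
Mean log2 value over 7 arrays of each Hox gene, by cluster (rows) and position (columns, 1 anterior to 13 posterior), with the mean printed in each symbol. Thick-edged circles are above the upper ceiling and thin-edged circles above the lower ceiling on all 7 arrays, squares are not, and crosses mark Hoxa11 and Hoxd4, which are covered by shared probe sets. The circles fill positions 2 to 7 of Hoxa and 2 to 5 of Hoxb, and Hoxc holds none.

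By paralogue group, the a and b members of groups 2, 3, 4 and 5 were above the lower ceiling together on all 7 arrays. In groups 6 and 7 only the Hoxa member was, in group 8 only Hoxd8 and in group 10 only Hoxd10, and groups 1, 9, 11, 12 and 13 had 0. Of the anterior genes (positions 1 to 3) 4 of 7 were above it, of the central genes (4 to 8) 7 of 14 and of the posterior genes (9 to 13) 1 of 15, which was Hoxd10. Of the clusters with genes above it, Hoxd was the one without a continuous run, since Hoxd9, which lies between Hoxd8 and Hoxd10, exceeded the lower ceiling on 1 array (4.17 on knockout 3) and measured 2.86 to 3.66 on the others.

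Genes near a ceiling are those whose class could change with little. Hoxb4, with a mean of 5.63, lay within 0.3 of the upper ceiling, above it on 5 arrays and below it on wild-type 1 (4.93) and knockout 4 (5.29). Hoxd12, with a mean of 4.16, lay above the lower ceiling on 6 of 7 arrays and below it on knockout 2 (3.89), and Hoxb6, at 3.67 to 3.91, lay just under it on all 7. Hoxd3 reached 4.00 on knockout 4 and 3.92 or less elsewhere. Without the array labelled wild-type 2, the array on which Hoxa3 is lowest, 4 genes instead of 3 were above the upper ceiling on every array.

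**Figure D2:**
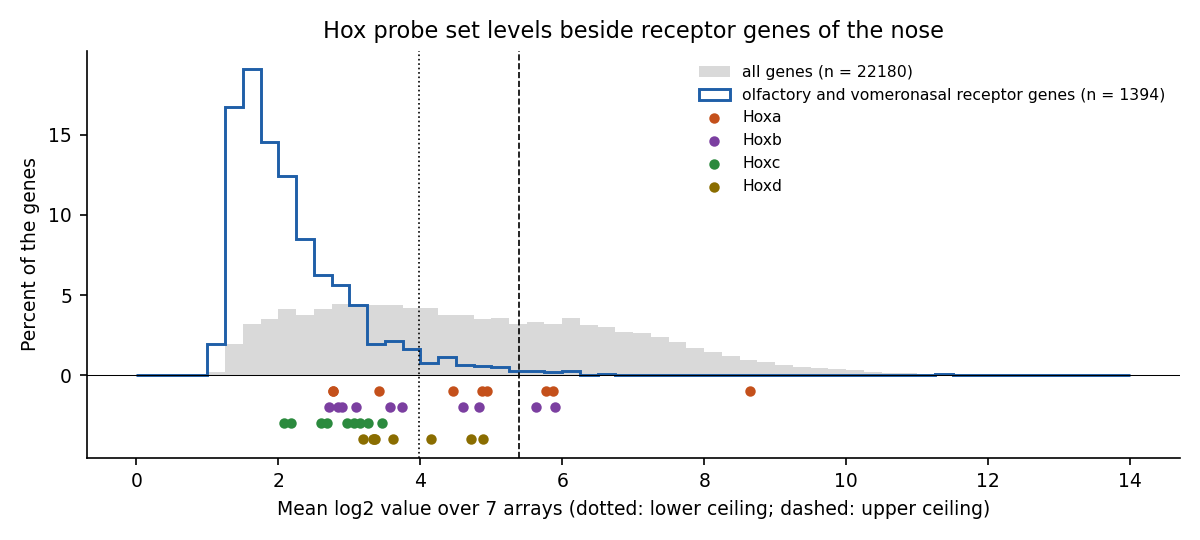
Distribution of mean log2 values over 7 arrays (horizontal axis) as percent of genes per bin of 0.25 (vertical axis), for all 22180 genes (grey) and the 1394 receptor genes (blue outline), with each Hox gene as a point in a row for its cluster below the zero line. The dotted and dashed lines are the lower ceiling (3.99) and the upper ceiling (5.39), and the Hoxc points all lie left of both.

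Hoxa5, a regulator of airway and lung mesenchyme development, measured 8.57, 7.58 and 8.75 with the wild-type label (arrays 1, 2 and 3) and 8.94, 9.13, 8.96 and 8.56 with the knockout label (arrays 1, 2, 3 and 4). All 7 values lay more than 2 log2 units above the upper ceiling. The array labelled wild-type 2 was the lowest by far, and the other wild-type-labelled arrays overlapped knockout 4.

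Among the anterior Hoxa genes, Hoxa2, a regulator of hindbrain and branchial arch patterning, measured 5.84 on each array with the wild-type label and 5.87, 5.94, 6.20 and 5.56 with the knockout label. Its knockout-labelled values thus spread to both sides of a wild-type-labelled value that was the same to the last deposited decimal. Hoxa3, a gene of pharyngeal organ development, measured 5.78, 5.20 and 6.03 with the wild-type label and 5.91, 5.78, 5.90 and 5.78 with the knockout label. Wild-type-labelled values held both its lowest and its highest array.

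The other central Hoxa genes lay between the ceilings. Hoxa4, which like Hoxa5 is active in lung mesenchyme, measured 4.97, 4.59 and 4.91 with the wild-type label and 5.05, 5.21, 5.10 and 4.76 with the knockout label. Hoxa6, which patterns the axial skeleton, measured 4.79, 4.62 and 4.90 against 4.99, 5.10, 4.75 and 4.90 in the same order. Hoxa7 measured 4.44, 4.44 and 4.24 against 4.37, 4.69, 4.44 and 4.62. The labels overlapped for all of them, and knockout 2 was the highest array for Hoxa4, Hoxa6 and Hoxa7 as it was for Hoxa5.

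In Hoxb, Hoxb5, which has been linked to the differentiation of endothelial precursors, measured 6.01, 6.18 and 5.55 with the wild-type label and 5.92, 5.92, 6.11 and 5.60 with the knockout label. Hoxb4, known from blood stem cells, measured 4.93, 5.80 and 5.90 against 5.80, 5.94, 5.72 and 5.29. The labels overlapped for both genes, with wild-type 3 lowest for Hoxb5 and wild-type 1 lowest for Hoxb4. Hoxb3 measured 4.54, 4.95 and 4.92 against 4.76, 4.99, 4.80 and 4.80. Hoxb2 measured 4.61, 4.61 and 4.55 against 4.61, 4.72, 4.61 and 4.47, the narrowest spread of the 12 genes (SD 0.0754 over 7 arrays). Hoxb2 patterns the hindbrain and Hoxb3 has been linked to capillary formation, and the labels overlapped for both.

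Both Hoxd genes above the lower ceiling were highest on the array labelled wild-type 2, which was the lowest array for 4 of the 6 Hoxa genes above it. Hoxd8, which has been linked to lymphatic vessels, measured 4.91, 5.36 and 4.84 with the wild-type label and 4.35, 4.77, 4.92 and 5.07 with the knockout label. Hoxd10, which has been linked to endothelial quiescence, measured 4.60, 5.04 and 4.77 against 4.79, 4.11, 4.89 and 4.79. The lowest array differed, knockout 1 for Hoxd8 and knockout 2 for Hoxd10, and the labels overlapped for both.

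**Figure D3:**
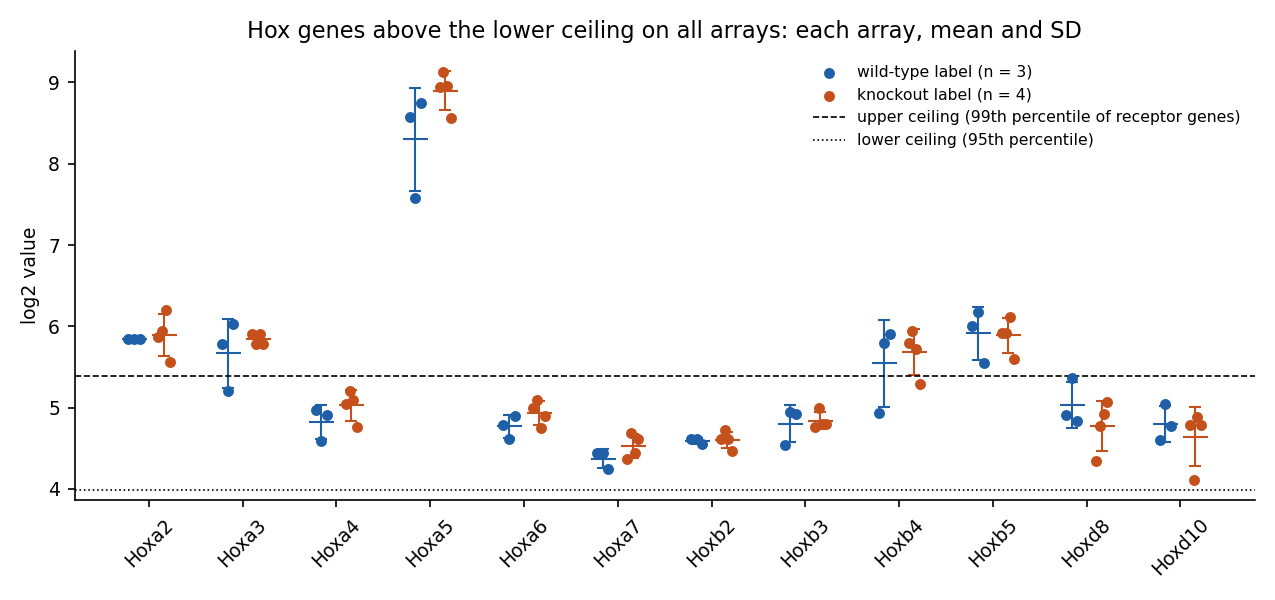
Log2 value of the 12 Hox genes above the lower ceiling on all 7 arrays, each array as a point, with the mean (horizontal bar) and SD (error bar) of the 3 arrays labelled wild-type (blue) and the 4 labelled knockout (orange). The dotted and dashed lines are the ceilings at 3.99 and 5.39. The labels overlap for every gene, and the Hoxa5 value of 7.58 is wild-type 2.

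Loss of Sash1 was compared with wild-type by label across all genes, and no Hox gene passed the test. Of the 36 genes, 26 passed the filter on dim values, and limma called 0 of them at an adjusted p under 0.05, as it called 0 of all 16637 genes tested (0%). At an unadjusted p under 0.05 there were 0 Hox genes, while 556 of all genes (3.34%) reached it. The 26 differences, given throughout as knockout-labelled minus wild-type-labelled means in log2 units, had a median of 0.01, against 0.015 over all genes, with 14 positive, 11 negative and 1 at 0, and 53.9% of all genes were positive. Median 95% confidence intervals reached 0.39 to either side for the 12 genes above the lower ceiling and 0.35 for all genes, which limits what 3 and 4 arrays can resolve.

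Hoxa5 had the largest difference of the 26 tested Hox genes, 0.60 (95% confidence interval -0.08 to 1.28, limma unadjusted p = 0.0762, adjusted p = 0.971). Its mean was 8.30 ± 0.63 (SD, n = 3) with the wild-type label and 8.90 ± 0.24 (SD, n = 4) with the knockout label. Leaving out the array labelled wild-type 2 gave 0.24, leaving out wild-type 3 gave 0.82, and leaving out any other array gave 0.52 to 0.73. In these bulk samples a change in the share of cells that carry a transcript and a change in its amount per cell cannot be told apart.

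The Hoxa genes shared the sign of Hoxa5 without passing the test. All 7 tested Hoxa genes had positive differences, with a median of 0.17, at 0.21 for Hoxa4, 0.19 for the dim Hoxa13, 0.17 for Hoxa3, 0.17 for Hoxa6, 0.16 for Hoxa7 and 0.05 for Hoxa2, and adjusted p of 0.971 to 0.991 in limma. The signs of Hoxa3 (-0.06 without wild-type 2) and Hoxa2 (-0.05 without knockout 3) rested on single arrays. For the 6 Hoxa genes above the lower ceiling the median was 0.17 with all arrays and 0.09 without wild-type 2. It was 0.26 without wild-type 3 and knockout 3, the arrays on which Sash1 overlapped the other label, an alternative chosen after seeing the data.

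Hoxb genes had small differences of both signs, with 5 of 7 tested positive and a median of 0.03. Hoxb4 differed by 0.14 (-0.16 without the array labelled wild-type 1), Hoxb3 by 0.03 (-0.10 without wild-type 1), Hoxb2 by 0.01 (-0.03 without knockout 2) and Hoxb5 by -0.03 (0.11 without wild-type 2), with adjusted p of 0.982 to 1 in limma. The confidence interval for Hoxb5 ran from -0.45 to 0.40 and that for Hoxb4 from -0.48 to 0.77. With each array centred on its median, Hoxb5 turned to 0.03.

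Hoxd genes were negative for 6 of 8 tested, with a median of -0.12. Hoxd8 differed by -0.26 (-0.74 to 0.22, adjusted p = 0.971 in limma) and by -0.10 without the array labelled wild-type 2. Hoxd10 differed by -0.16 (-0.65 to 0.34, adjusted p = 0.972 in limma) and by 0.02 without knockout 2. Without knockout 2 the median of the 8 Hoxd genes was 0.0016, so the sign of this group rested on that array.

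**Figure D4:**
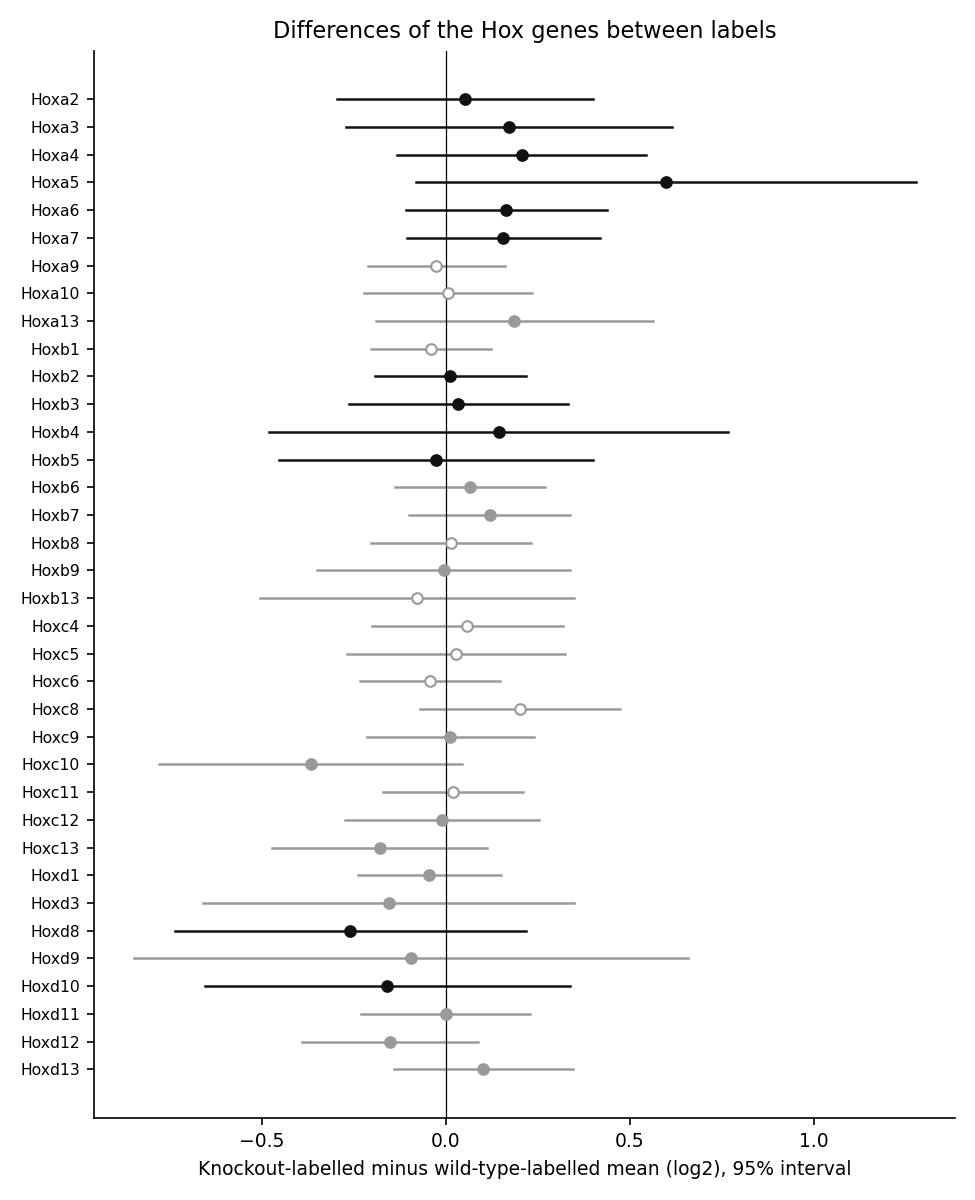
Difference of each of the 36 Hox genes, as knockout-labelled minus wild-type-labelled mean in log2 units (horizontal axis), with its 95% confidence interval from limma. Black points are above the lower ceiling on all 7 arrays, grey points are not, and open points are genes removed by the filter on dim values, shown from the fit without that filter. Every interval includes 0.

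In 1 of the 26 tested Hox genes the labels did not overlap, against 2.45% of all genes (0.679% with knockout lower). This gene was Hoxc10, named here after its values were seen. It measured 3.75, 3.57 and 3.71 with the wild-type label and 3.40, 2.84, 3.50 and 3.50 with the knockout label, all under the lower ceiling. Its difference was -0.37 (-0.78 to 0.05, limma unadjusted p = 0.0738, adjusted p = 0.971) and -0.21 without the array labelled knockout 2.

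Differences between arrays cut across the labels. Of the 6 Hoxa genes above the lower ceiling, all 6 were below their own mean on the array labelled wild-type 2. It was the lowest array for 4 of them, against 14.2% of the 11484 genes above the lower ceiling that are not Hox genes. The array labelled knockout 2 was the highest for 4 of the 6 Hoxa genes, 3 of the 4 Hoxb genes and neither Hoxd gene, 7 of 12 in all. Among the other genes above the lower ceiling, knockout 2 was also the most frequent highest array, in 26.4% of 11484. Among the 24 remaining Hox genes knockout 2 was instead the lowest array for 10 (41.7%, against 27.0% of other genes not above the lower ceiling) and knockout 4 was the highest for 11 (45.8%, against 21.2%). Over the 7 arrays the median SD was 0.23 for the 12 Hox genes and 0.20 for all genes above the lower ceiling.

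Markers of other cell types moved with some of these arrays. The cardiac muscle list (8 genes, 1 of them above the upper ceiling on all 7 arrays) averaged 6.34 on wild-type 2 and 5.40 to 5.69 on the other arrays. The mesothelium list (7 genes, 2 above it on all 7) averaged 5.99 on wild-type 2 and 5.04 to 5.64 elsewhere. Wild-type 2 is the array on which all 6 Hoxa genes were below their mean, and the part of these cells in that result was not tested. The fibroblast and mesenchyme list, of which 11 of 16 genes were above the upper ceiling on all 7 arrays, averaged 6.24 to 6.62 with the wild-type label and 6.53 to 6.89 with the knockout label, with 16 of 16 differences positive. It was lowest on wild-type 1, where 4 of the 6 Hoxa genes were below their mean, and highest on knockout 1, where 1 was. The list averaged 6.62 on wild-type 2, its highest with that label, where all 6 Hoxa genes were below their mean. It averaged 6.53 on knockout 2, its lowest with that label, where 0 were. Its part in the Hoxa differences was not tested. Pdgfra (5.66 to 7.46) and Col1a1 (6.33 to 6.95), which define lung fibroblasts, were above the upper ceiling on every array. Wt1, a mesothelial gene, measured 4.80 to 5.24 on 6 arrays and 6.49 on knockout 4, where the mesothelium list as a whole averaged 5.38, within its range on the other arrays. The lung epithelium and leukocyte lists were lowest on knockout 4, at 6.62 (7.07 to 8.11 elsewhere) and 4.45 (5.31 to 5.89 elsewhere). Of their differences 13 of 16 and 13 of 14 were negative, with medians of -0.20 and -0.32. Without knockout 4 these medians were 0.03 and -0.08. Knockout 4 is also the highest array for 11 of the 24 Hox genes not above the lower ceiling, and the part of these cells in that result was not tested. The endothelium list averaged 9.82 to 10.05 on all arrays.

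**Figure D5:**
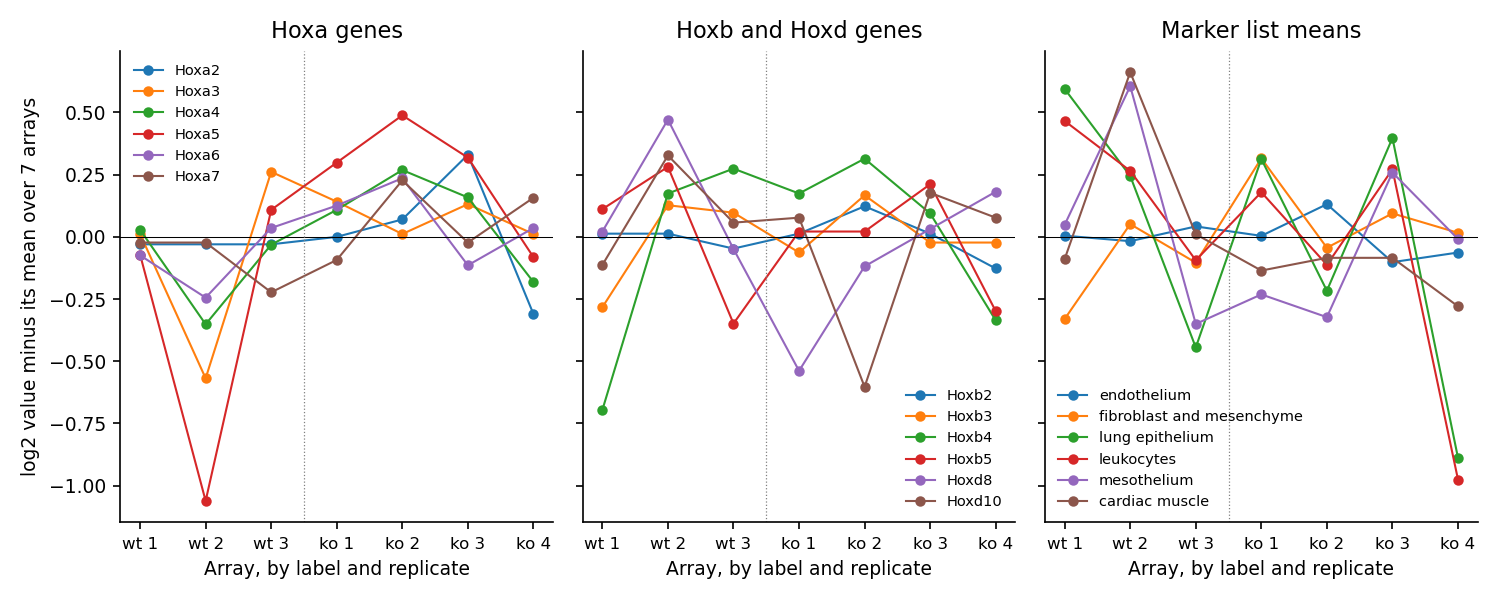
Log2 value minus the mean over 7 arrays (vertical axis) on each array (horizontal axis, wild-type labels left and knockout labels right of the dotted line) for the 6 Hoxa genes, the Hoxb and Hoxd genes above the lower ceiling, and the means of 6 marker lists. Lines join the values of a gene or list and carry no order. On wild-type 2 all 6 Hoxa genes lie below 0, while the mesothelium and cardiac muscle lists and both Hoxd genes lie above it.

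Other probe sets of the clusters gave only in part the same picture of which parts had signal above background. The probe set shared by Mir10a and Hoxb4 measured 1.21 to 1.77, under the lower ceiling on all 7 arrays. The probe set of Hoxb4 alone was above that ceiling on all 7. A second Hoxb5 probe set (5.43 to 5.79) and a probe set shared by Hoxb3 and Hoxb2 (5.42 to 5.95) were above the upper ceiling on all 7 arrays. The second Hoxb5 probe set differed by 0.09 between labels where the first differed by -0.03. Probe sets shared by Hoxa3 and 5730446D14Rik (4.80 to 5.25) and by Mira and Hoxa7 (4.85 to 5.76) were above the lower ceiling on all 7. Hoxaas3, an antisense transcript of the Hoxa cluster, measured 5.06, 4.59 and 5.06 with the wild-type label and 5.22, 5.27, 5.06 and 4.68 with the knockout label. It was lowest on wild-type 2 and highest on knockout 2, as were Hoxa4, Hoxa5 and Hoxa6.

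The remaining shared probe sets and noncoding genes of the clusters were under the lower ceiling on at least some arrays. The probe set shared by Hoxd4 and Hoxd3 measured 3.70 to 4.17, and both shared by Hoxa11 and Hoxa11os measured 1.94 to 3.29. Hotair, the noncoding RNA of the Hoxc cluster, measured 2.95 to 3.13, Mir10b of the Hoxd cluster 1.25 to 1.61 and Mir196a-2 of the Hoxc cluster 2.79 to 3.63. Mir196a-1 of the Hoxb cluster (3.93 to 4.10) was above the lower ceiling on 5 of 7 arrays and Hoxd3os1 (3.25 to 4.12) on 1. A probe set on a microRNA gene reads its precursor region, so these values say little of the mature microRNA. Of the 8 noncoding genes measured of 22 listed, 6 were tested and 0 were called, with 4 positive and 2 negative differences.

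Hox factors bind DNA with TALE cofactors, the Pbx, Meis and Pknox proteins. Of the 8 genes measured 5 were above the upper ceiling on all 7 arrays, 0 were called, and 5 had positive and 3 negative differences (median 0.08). Meis2 measured 7.53, 7.39 and 7.91 with the wild-type label and 8.01, 7.84, 7.69 and 7.79 with the knockout label, a difference of 0.22 (-0.12 to 0.56). Meis1 measured 6.94 to 8.15, highest on wild-type 3, and differed by 0.20 (-0.02 without wild-type 2). Pbx3 differed by 0.11 and Meis3 by -0.16. The labels overlapped for all 8 cofactor genes.

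Polycomb proteins keep Hox genes silent and Trithorax proteins keep them active. Of the Polycomb list 19 of 20 genes were measured, 14 of them above the upper ceiling on all 7 arrays, and 0 were called, with 13 positive and 6 negative (median 0.06). Ezh2, the histone H3 lysine methyltransferase of the complex, differed by 0.14 (-0.29 to 0.57), the ubiquitin ligase genes Rnf2 and Ring1 by -0.21 and 0.11, and Cbx2 and Cbx7, which read the mark, by 0.17 and 0.21. Single arrays moved these values, that of Ezh2 to 0.017 and of Cbx2 to 0.097 without wild-type 2 and that of Cbx7 to 0.042 without wild-type 3. Of the Trithorax and demethylase list all 11 measured genes were above the upper ceiling on all 7 arrays, and 0 were called, with 10 positive and 1 negative (median 0.03). The negative one was Kmt2a, the methyltransferase best known for keeping Hox genes active, at -0.08 (-0.63 to 0.46), a sign that turned without wild-type 3 (0.09) or knockout 3 (0.03). Its partners Men1, Ash2l, Rbbp5 and Dpy30 differed by 0.33, 0.24, 0.24 and 0.08, each with an adjusted p of 0.971 in limma. Without wild-type 2 the first 3 of these were 0.14, 0.13 and 0.09.

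Retinoic acid, made by Aldh1a enzymes and degraded by Cyp26 enzymes, is known to switch on anterior Hox genes through its receptors. Of 17 measured genes of this pathway 6 were above the upper ceiling on all 7 arrays and 13 were tested, with 0 called, 10 positive and 3 negative (median 0.10). Rarb, a receptor gene that is itself a retinoic acid target, measured 4.87, 5.12 and 4.70 with the wild-type label and 4.72, 4.70, 4.16 and 4.75 with the knockout label, a difference of -0.31 (-0.73 to 0.10). Rxra, the receptor partner, measured 6.80 to 6.93 against 6.97 to 7.17, a difference of 0.16 (-0.05 to 0.37, adjusted p = 0.971 in limma). Its labels did not overlap, as was the case for 2.45% of all genes tested. Cyp26b1 measured 5.53 to 6.72 and differed by 0.25 (-0.01 without wild-type 2), while Aldh1a2 measured 3.32 to 4.56 and differed by 0.03, a sign that turned without wild-type 3 (-0.09), knockout 1 (-0.11) or knockout 3 (-0.12). Crabp2 and Stra6, which carry and take up retinoids, differed by 0.20 and 0.17. None of these genes passed the test.

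Cdx and ParaHox genes, relatives of the Hox genes that pattern gut and tail, served as a comparison that lung endothelium is not known to express. None of the 6 was above the lower ceiling on all 7 arrays, and of the 4 tested 0 were called. Gsx1, at 4.07 to 4.13 on 6 arrays and 3.84 on wild-type 2, nevertheless passed it on 6 of 7 arrays, and Gsx2 passed it on knockout 4 (4.04). The lower ceiling thus lets through signal of genes of this comparison on up to 6 of 7 arrays, as it does for 3.44% of the receptor genes on all 7. Cdx2 differed by 0.28, Gsx2 by 0.10, Gsx1 by 0.09 and Pdx1 by -0.0042, with adjusted p of 0.971 to 1 in limma.

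Genes next to the clusters, which are not Hox genes, were read for comparison. Of 14 measured neighbours 6 were above the upper ceiling on all 7 arrays, 0 were called, and 8 had positive and 6 negative differences (median 0.02). Evx1 (3.59 to 3.82), at the posterior end of Hoxa, and Evx2 (3.77 to 4.40), at that of Hoxd, were under the upper ceiling on every array, while Evx2 passed the lower ceiling on 5 of 7. Skap2, beyond the anterior end of Hoxa, was above the upper ceiling on every array, at 8.36 ± 0.20 (SD, n = 3) with the wild-type label and 8.37 ± 0.26 (SD, n = 4) with the knockout label. Cbx5 and Smug1, beside Hoxc, differed by 0.48 (-0.09 to 1.05) and 0.29, Mtx2, beside Hoxd, by 0.27 and Calcoco1, beside Hoxc, by 0.16.

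Genes linked to Hox factors in endothelial studies were read last. Of 19 measured 14 were above the upper ceiling on all 7 arrays and 0 were called, with 6 positive and 13 negative (median -0.05). Mmp14, a membrane-bound protease of migrating endothelial cells, measured 8.82, 8.80 and 8.91 with the wild-type label and 9.09, 9.18, 9.21 and 9.30 with the knockout label. The labels did not overlap, as was the case for 2.45% of all genes tested. The difference was 0.35 (0.15 to 0.55, limma unadjusted p = 0.00412, adjusted p = 0.971), at 0.32 to 0.39 with any array left out. It was the only gene of this list with an unadjusted p under 0.05, a level that 3.34% of all genes reached. Plaur, the urokinase receptor gene, measured 9.63, 9.45 and 7.81 against 7.81, 8.25, 8.90 and 8.26, a difference of -0.66 (-1.75 to 0.44). It ranged from -1.24 when wild-type 3 was left out to -0.33 when wild-type 1 was. Itgav and Angpt2 differed by -0.20 and -0.16. Over all the context lists, a single left-out array changed the value by more than 1.5 times or turned its sign for 33 of the 36 genes followed, the others being Mmp14, Pbx3 and Rxra, and it did so for all 13 Hox genes followed.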

How the data were processed

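The authors deposited 1 value per probe set and array, made with RMA in Affymetrix Expression Console 1.1 per the submitters' processing notes. That these are log2 values was read from the deposited numbers; the genome build is not given in the sources used here. RMA includes normalization between arrays, which can hide a shift shared by all genes. Of 41345 probe sets, 23521 had 1 gene symbol in the platform annotation, 1814 several and 16010 none, and a gene was represented by its brightest such probe set over 7 arrays. Genes kept their platform symbol, with the RefSeq GRCm38.p6 symbol beside it for finding listed genes (99.2% of identifiers found). Array medians were 3.86 to 4.03. The dimmest 25% of genes (below 2.98) were left out and 16637 tested with limma 3.58.1 (lmFit, eBayes, genotype only, two-sided, Benjamini-Hochberg over all genes, threshold 0.05) in R 4.3.3. The fit was tested on simulated data. A level was called above background by the 99th percentile of receptor genes, with the 95th as the alternative, on which the text leans for the wider set of 12 genes. Values tied across arrays, which narrow SDs, were counted. Hox genes were named with values where above a ceiling on all 7 arrays or within 0.3 of it, and context lists by their 4 smallest p plus set genes. Members, lists and tests were chosen with earlier results of these data known. Alternatives covered filter, normalization, probe sets, moderation, weights, replicate block, threshold and single arrays.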

Additional observations from a re-analysis of the deposited data

Results flagged for a closer look

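In groups of 4 arrays, a value was singled out where its gap to the nearest other value exceeded Dixon's 95% limit, and about 1 in 20 groups would do so by chance. This was the case in 16 of 89 groups, 6 of them among the 36 Hox genes, all among the arrays labelled knockout, since 3 arrays are too few to be checked. Values tied across arrays, which make a single gap more frequent, occurred on 4 or more arrays for 8 of 36 Hox genes (22.2%) and for 17.4% of all genes.

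On knockout 2, Hoxd10 measured 4.11 (others 4.79 to 4.89), Hoxd12 3.89 (others 4.16), Hoxd1 3.19 (others 3.37) and Hoxc10 2.84 (others 3.40 to 3.50), so this array was the low one for 4 of the 6 Hox genes. Hoxb8 measured 2.75 on knockout 3 (others 2.95 to 2.96) and Hoxc11 3.13 on knockout 4 (others 2.92 to 2.95), and of the 6 only Hoxd10 was above the lower ceiling on all 7 arrays.

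Among the context genes, knockout 2 stood apart for Meis3 (4.15, others 4.46), Rxra (7.17, others 6.97) and Cyp26b1 (6.67, others 6.13 to 6.22). Knockout 3 stood apart for Cbx7 (4.17, others 3.88 to 3.90), Rarb (4.16, others 4.70 to 4.75), Pdx1 (3.35, others 3.38) and Gsx1 (4.13, others 4.07). Knockout 4 did for Rnf2 (7.57, others 7.93 to 7.99) and Itgav (6.56, others 6.90), and knockout 1 for Hotair (2.95, others 3.10 to 3.13).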

How the results depend on the processing

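The 0 calls held under every alternative run, for all genes and for Hox genes, with a smallest adjusted p over the Hox genes of 0.466. The number of Hox genes above background, 3, moved to 12 with the 95th percentile of the receptor genes, to 9 with the median of all genes (4.46) as the ceiling and to 5 with the mean over 7 arrays in place of each array. The same-numbered arrays did not deviate together (r = -0.18, -0.20 and -0.55 for numbers 1, 2 and 3), and the replicate block gave 0 calls as a fixed or random term, with 225 and 367 genes at an unadjusted p under 0.05 against 556 (394 without a block on numbers 1 to 3). Without 1 array the 556 ranged from 295 to 1314, and without wild-type 3 and knockout 3, an alternative chosen after seeing the data, it was 1779.

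Signs turned for 18 followed differences, none of which passed the test. Leaving out single arrays gave ranges of -0.05 to 0.16 for Hoxa2, -0.062 to 0.35 for Hoxa3, -0.027 to 0.057 for Hoxb2, -0.10 to 0.11 for Hoxb3, -0.16 to 0.32 for Hoxb4, -0.21 to 0.11 for Hoxb5 and -0.26 to 0.02 for Hoxd10. They were -0.015 to 0.59 for Meis1, -0.24 to 0.087 for Kmt2a, -0.12 to 0.30 for Aldh1a2, -0.01 to 0.58 for Cyp26b1, -0.0075 to 0.0033 for Pdx1, -0.043 to 0.24 for Gsx2, -0.0025 to 0.28 for Hoxaas3, -0.067 to 0.22 for Hoxd3os1 and -0.29 to 0.13 for Mir196a-2. Array weights turned Hoxb2 (-0.0065), Hoxb3 (-0.015) and Aldh1a2 (-0.026). Median centring turned Hoxb5 (0.032), Pdx1 (0.053) and Hotair (0.0050), quantile normalization turned Pdx1 (0.045), and averaging a gene's probe sets turned Hoxb5 (0.032). The fit with the fixed replicate block gave Hoxb5 as 0.07 and Gsx2 as -0.043, the same values as without knockout 4, which that fit leaves out, so the block itself did not turn them. The random replicate block turned Aldh1a2 (-0.043). Without wild-type 3 and knockout 3, Hoxa2 was -0.05, Hoxb2 -0.01, Cbx7 -0.028, Kmt2a 0.20, Aldh1a2 -0.23, Pdx1 0.0050 and Hoxd3os1 -0.10. The cause of these turns was not tested. Signal close to background limits the 24 Hox genes not above the lower ceiling, of which 7 (29.2%) had the same value on 4 or more arrays.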
